A study of Mus musculus with 6 samples.

Results

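Reelin and 7 genes that carry its signal or act beside it were followed in the embryonic mouse cortex. The genes were Reln, the receptor genes Lrp8 and Vldlr, and the adaptor gene Dab1. The others were the kinase gene Cdk5, its activator gene Cdk5r1, and the dynein regulator genes Pafah1b1 and Ndel1. They were chosen by name, with earlier results of these data known. Of the 45037 probe sets of the array, 30 were annotated to 1 of these genes alone. In a table with 1 row per gene, in which the brightest probe set stands for the gene, the members were 8 of 18193 genes. The 6 arrays held RNA of the dorsal telencephalon, the part of the forebrain that forms the cerebral cortex, dissected at embryonic day 14.5. The 3 cKO arrays came from conditional knockouts of ESET (gene Setdb1), an enzyme that methylates lysine 9 of histone H3, made with Emx2Cre, which acts in progenitors of the dorsal forebrain. The 3 WT arrays came from wild-type embryos, and whether these carried the Cre is not given in the sources used here. All embryos were on a C57BL\6 background and labelled male, and the design text gives 3 embryos per genotype, taken here as 1 embryo per array.

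Reelin is a large secreted glycoprotein that Cajal-Retzius cells release at the cortical surface during this period. It binds ApoER2, encoded by Lrp8, and the very low density lipoprotein receptor, encoded by Vldlr, and the clustered receptors bring Dab1 to Src family kinases that phosphorylate it. Cdk5 with its activator p35, and Lis1 (Pafah1b1) with Ndel1 at the dynein motor, act beside this pathway in the migration of cortical neurons. Mice that lack Reln, Dab1 or both receptors form an inverted cortex.

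The dorsal markers Emx1, Pax6, Tbr1, Neurod6, Neurog2, Eomes and Lhx2 were bright in both genotypes, with the lowest mean among 8 such genes at 688 in cKO, for Emx2, and 976 in WT, for Emx1. Of these 8, 0 passed the limma threshold. At an unadjusted p under 0.05, 2 were lower, Emx2 and Eomes, and 0 higher, where 4.39% of all genes were lower and 5.17% higher. Eomes was at -0.63, with each cKO array below each WT array. Setdb1 itself read 633 ± 115 in cKO and 1126 ± 81.9 in WT (SD, n = 3). The genotypes did not overlap, but the limma test missed the threshold (adjusted p = 0.137). Emx2, the gene after which the Cre line is named, had a log2 fold change of -0.83 (adjusted p = 0.0714). Median intensities of the arrays ran from 98.7 to 119 in cKO and from 91.1 to 113 in WT. The arrays numbered 3 stood apart. The embryonic globin Hba-x read 19913 on cKO 3 and 20068 on WT 3, against 270 to 513 on the other arrays. Xist read 8811 on cKO 3 and 17294 on WT 3, although both embryos were labelled male, and the Y-linked Kdm5d read 663 on cKO 3 and 10.2 on WT 3. Eif2s3y, also Y-linked, read 961 on cKO 3 and 22.2 on WT 3. WT 3 thus read as female, against its label. cKO 3 held both Xist and Y-linked RNA, which 1 male embryo would not give, so 1 embryo per array is unsure for it. The cause was not tested. Calls in the gene table are therefore also given without the arrays numbered 3.

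Reln was the member that separated the genotypes most clearly. Its bright probe set had intensities of 2864, 2507 and 3197 on the cKO arrays and 6286, 6198 and 6552 on the WT arrays. Every cKO array lay below every WT array, and the cKO mean of 2856 ± 345 (SD, n = 3) was 45.0% of the WT mean of 6345 ± 184. On the scale of log2(intensity + 16) used throughout, Reln fell by 1.15 in cKO (SE 0.14, 95% interval -1.48 to -0.83, limma adjusted p = 0.0266 over the gene table). It was the only 1 of the 8 members past the threshold of 0.05 there, where 0.627% of all genes passed in either direction and 0.242% passed downward. When adjusted over all 45037 probe sets, the same probe set did not pass (adjusted p = 0.0561), and 23 probe sets, or 0.0511%, passed downward. The fold change ran from -1.24 to -1.06 when any 1 of cKO 1, cKO 2, cKO 3, WT 1, WT 2 or WT 3 was left out, and the call was lost in each of these fits (adjusted p = 0.0587 to 0.138). Without both arrays numbered 3 it was -1.22, again without a call (adjusted p = 0.164). An exact permutation test of the 3 against 3 arrays gave p = 0.10, two-sided, the smallest it can give.

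The other probe set of Reln was dim. It read 19.4, 12.9 and 9.02 in cKO and 34.8, 35.9 and 32.5 in WT, so here too each cKO array was below each WT array. The cKO mean lay under the added 16, which sets the size of this difference (-0.77, SE 0.17, adjusted p = 0.238 over all probe sets).

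Cajal-Retzius cells are the source of most reelin in this tissue, and in dissected tissue fewer such cells and less Reln RNA per cell cannot be told apart. Of 14 other genes listed as markers of these cells, 0 passed the limma threshold in the gene table, while at an unadjusted p under 0.05 there were 4 lower and 0 higher, where 4.39% of all genes were lower and 5.17% higher by that rule. The 4 were Trp73 at -1.14, Ndnf at -1.34, Lhx5 at -1.05 and Lhx1 at -1.68. The last 2 were dim, with cKO means of 30.9 and 25.6 and WT means of 79.0 and 103. Cxcr4, at -0.45, was also lower without overlap. Zic1, at -0.84, Calb2, at -0.26, Nhlh2, at 0.14, and Ebf3, at 0.16, had genotypes that overlapped, as did the others, between -0.28 and 0.23. With Reln included, 6 of 15 did not overlap downward and 0 upward, where 7.64% and 7.90% of all genes did so. Summed over the 14 genes, intensities were 4316 to 6221 in cKO and 5205 to 7622 in WT. The bright Nr2f2, Nhlh2 and Zic1 weigh most in this sum, and 1 marker, Barhl2, was near background in both. The part of the cells' number in the Reln result was not tested.

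**Figure D1:**
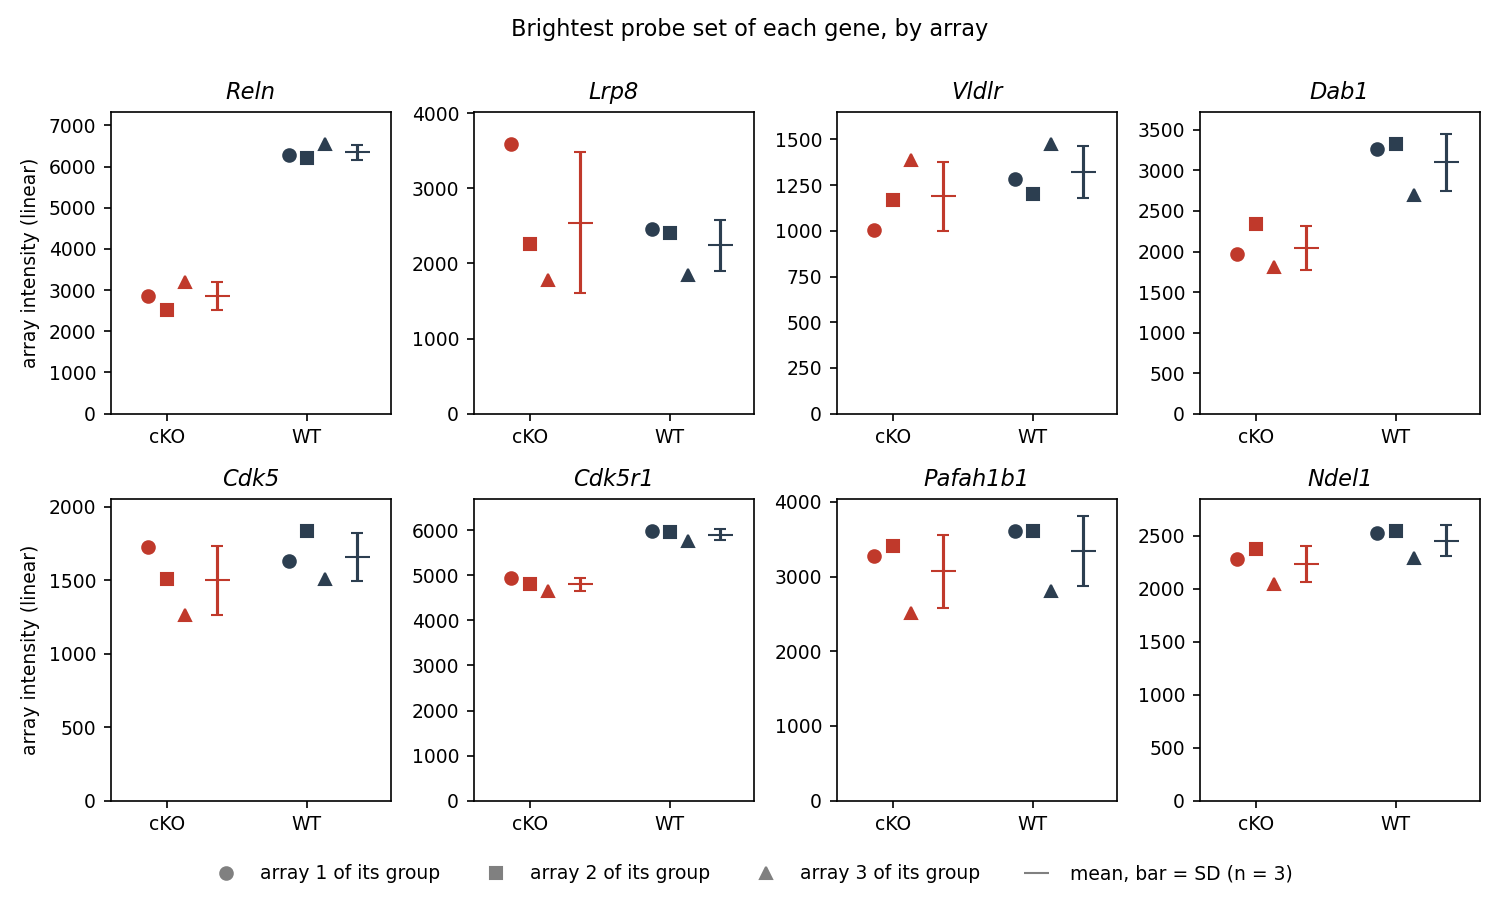
Intensities of the brightest probe set of each of the 8 genes on a linear axis that starts at 0, with cKO arrays left and WT arrays right, a marker shape per array number, and the mean with its SD (n = 3). Reln reads 2507 to 3197 in cKO and 6198 to 6552 in WT, Dab1 and Cdk5r1 also separate the genotypes, and the other 5 genes overlap.

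Neither receptor gene passed the test. For Vldlr, all 6 probe sets were lower in cKO, and on 4 of them the genotypes did not overlap. Of all probe sets, 6.07% had each cKO array below each WT array. The probe set with the largest difference read 493, 229 and 196 in cKO and 810, 583 and 748 in WT, with -1.28 (SE 0.35) as its log2 fold change. A second read 590, 633 and 488 in cKO and 796, 816 and 829 in WT, at -0.51 (SE 0.15). Both show WT arrays above all cKO arrays, with the cKO values spread widely on the first. The other 2 without overlap were at -0.94 (SE 0.27) and -0.36 (SE 0.15). The brightest Vldlr probe set, which represents the gene in the gene table, read 1007, 1171 and 1387 in cKO and 1286, 1202 and 1476 in WT, and overlapped. Its log2 fold change of -0.16 (SE 0.16, 95% interval -0.55 to 0.24) is the smallest of the 6. Its name, like that of the dimmest probe set at -0.27, carries a suffix that Affymetrix gives to probe sets that may read more than a single transcript. Without probe sets of such names, the one at -0.51 represents the gene. No Vldlr probe set passed over all probe sets (adjusted p = 0.363 to 0.936). At an unadjusted p under 0.05, 3 were lower, where 3.33% of all probe sets were. The 6 probe sets read the RNA of 1 gene and are not independent.

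For Lrp8 the probe sets had no common direction. Of the 3 2 were higher and 1 lower in cKO, and all overlapped. The brightest read 3591, 2256 and 1778 in cKO and 2456, 2411 and 1851 in WT. One cKO array was high, and the other 2 lay below WT 1 and WT 2. The log2 fold change was 0.13 (SE 0.28), with a 95% interval of -0.54 to 0.80 that leaves room for a change of either sign, and it came to -0.15 without cKO 1. A more even probe set read 798, 817 and 1024 in cKO and 848, 815 and 890 in WT, at 0.04 (SE 0.16). Whether Vldlr and Lrp8 responded differently was not tested.

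Dab1, which binds the tails of both receptors, was lower in cKO on all 5 of its probe sets, and on 4 the genotypes did not overlap. Such a downward separation was found for 6.07% of all probe sets. The 5 read the RNA of 1 gene on the same arrays and are not independent. The brightest read 1970, 2342 and 1814 in cKO and 3269, 3328 and 2700 in WT. Means were 2042 ± 271 in cKO and 3099 ± 347 in WT (SD, n = 3), so cKO stood at 65.9% of WT. Another read 1239, 1269 and 1252 in cKO and 1932, 1762 and 1923 in WT, with little spread within either genotype. The 5 log2 fold changes lay close together, between -0.60 and -0.46. In the gene table Dab1 was at -0.60 (SE 0.16, 95% interval -0.98 to -0.22) and did not pass (limma adjusted p = 0.239). The probe set behind this value carries a suffix of the kind described for Vldlr. Without probe sets of such names, the one at -0.49 (SE 0.22), on which the genotypes overlapped, represents the gene. Over 17 alternative settings and left-out arrays Dab1 stayed lower in cKO, from -0.70 to -0.49, and passed in 0. Of 7 measured markers of projection neurons, the cells in which Dab1 acts, 0 passed and 2, Fezf2 at -0.54 and Sox5 at -0.32, were lower at an unadjusted p under 0.05, where 4.39% of all genes were. The summed intensity of these markers was 51572 to 56830 in cKO and 55816 to 60982 in WT, and its part in the Dab1 values was not tested.

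**Figure D2:**
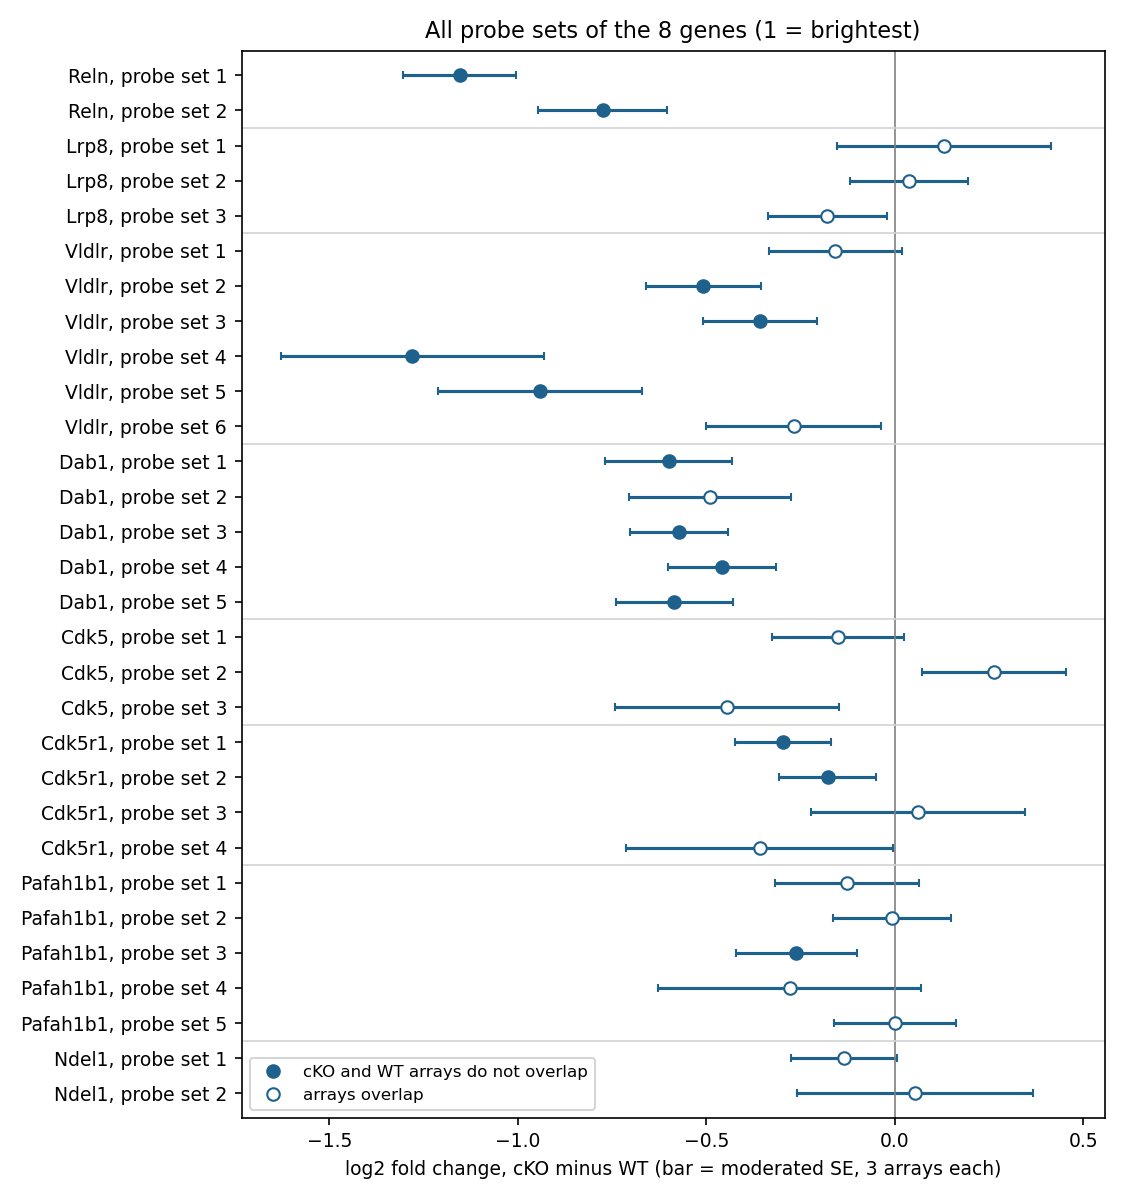
Log2 fold changes, cKO minus WT, of all 30 probe sets of the 8 genes, ordered within each gene by brightness, with bars for the moderated SE (3 arrays each). Filled points mark the 13 probe sets on which the genotypes do not overlap, all of them to the left of 0.

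Reln, Dab1 and Vldlr were the genes with the most probe sets lower in cKO without overlap relative to their number. The sequences of their promoters listed furthest upstream are shown to set these 3 genes side by side. They come from RefSeq (GRCm38.p6), run 5′ to 3′ on the strand of the gene and have each CG dinucleotide in capitals. The Reln sequence is chr5:22344706-22344955 on the minus strand, that of Dab1 is chr4:103619250-103619499 on the plus strand, and that of Vldlr is chr19:27216234-27216483 on the plus strand.
Reln: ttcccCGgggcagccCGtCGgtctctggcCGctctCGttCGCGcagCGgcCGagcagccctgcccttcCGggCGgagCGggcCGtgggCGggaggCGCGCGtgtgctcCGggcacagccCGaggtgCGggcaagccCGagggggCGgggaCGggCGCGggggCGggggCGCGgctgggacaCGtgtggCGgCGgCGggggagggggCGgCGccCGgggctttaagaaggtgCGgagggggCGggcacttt
Dab1: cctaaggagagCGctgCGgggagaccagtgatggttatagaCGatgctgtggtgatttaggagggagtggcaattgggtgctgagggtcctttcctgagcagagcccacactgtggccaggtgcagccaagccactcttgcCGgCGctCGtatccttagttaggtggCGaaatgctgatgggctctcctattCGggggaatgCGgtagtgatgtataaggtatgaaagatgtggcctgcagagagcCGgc
Vldlr: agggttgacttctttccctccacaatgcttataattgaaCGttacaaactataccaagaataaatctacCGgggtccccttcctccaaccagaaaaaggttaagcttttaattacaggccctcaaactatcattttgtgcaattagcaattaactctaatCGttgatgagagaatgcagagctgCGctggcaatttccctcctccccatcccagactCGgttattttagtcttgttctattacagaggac
Over these 250 bases Reln has 37 CG dinucleotides, Dab1 has 10 and Vldlr has 5. CG reads the same on both strands. Among 32851 promoters of this length the median was 6, and 2.20% held at least as many as Reln, 37.8% as many as Dab1 and 55.6% as many as Vldlr. At least 1 CG was present in 92.1% of them. The palindrome CACGTG, an E-box that contains a CG, occurs 1 time in the Reln sequence, 0 times in the other 2, and at least 1 time in 6.02% of all promoters. The Ndel1 promoter also holds 1 CACGTG. The promoters of Lrp8, Ndel1 and Pafah1b1 listed furthest upstream hold 18, 20 and 22 CG. The brightest probe sets of these genes overlapped between the genotypes. By the RefSeq gene limits, the listed promoters of Lrp8 and Pafah1b1 lie inside the gene, and those of Vldlr and Ndel1 reach a few bases into it. The arrays measured no methylation or binding at these promoters. Dab1 and Vldlr each have a further listed promoter within the gene, with 40 and 18 CG in its 250 bases.

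Neither gene of the kinase branch passed the test. Cdk5r1, which encodes the neuronal activator p35 of Cdk5, read 4934, 4815 and 4653 in cKO on its brightest probe set and 5986, 5956 and 5759 in WT. These values do not overlap and are tight, and the cKO mean was 81.4% of the WT mean. The log2 fold change was -0.30 (SE 0.11, 95% interval -0.56 to -0.03), short of the threshold (limma adjusted p = 0.455). A second bright probe set, at 4486, 4445 and 4457 in cKO and 5076, 5247 and 4836 in WT, also did not overlap, at -0.18 (SE 0.13). The other 2 Cdk5r1 probe sets, with means of 466 and 213 in cKO and 441 and 281 in WT, overlapped, at 0.06 and -0.36. Cdk5 itself read 1729, 1508 and 1262 in cKO and 1628, 1836 and 1511 in WT, with overlap and a log2 fold change of -0.15 (SE 0.16, 95% interval -0.54 to 0.24). Its 2 dimmer probe sets were at 0.26 and -0.45, so its probe sets had no common direction.

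The Lis1 and Ndel1 genes, whose proteins regulate dynein during nuclear movement, did not separate the genotypes on their brightest probe sets. Pafah1b1 read 3282, 3412 and 2512 in cKO and 3611, 3612 and 2808 in WT. In both genotypes the array numbered 3 was the lowest, and the log2 fold change was -0.13 (SE 0.18, 95% interval -0.56 to 0.31). All 5 of its probe sets had log2 fold changes below 0, the lowest at -0.28 and the highest, close to 0, at -0.008 and -0.0005. On 1 of the 5 the genotypes did not overlap, at 1117, 978 and 837 in cKO and 1130, 1245 and 1128 in WT. Ndel1 read 2285, 2375 and 2050 in cKO and 2529, 2548 and 2292 in WT, at -0.14 (SE 0.12, 95% interval -0.44 to 0.17). Its second probe set, with means of 266 in cKO and 254 in WT, was at 0.05. For both genes the intervals include 0 and also include falls of up to 0.56 and 0.44 on the log2 scale.

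Across the 8 genes, 7 had a negative log2 fold change on their brightest probe set, with a median of -0.15, against 0.007 over all genes. The genotypes did not overlap for 3 of the 8, all lower in cKO, where 7.64% of all genes did so downward and 7.90% upward. Over all probe sets, 25 of the 30 were lower and 5 higher in cKO, with a median of -0.27, against 0.02 for all probe sets. Of the 30, 13 had all cKO arrays below all WT arrays and 0 the reverse, where 6.07% of all probe sets had the first pattern and 7.47% the second. limma called 0 of the 30 over all probe sets, and an unadjusted p under 0.05 was found for 9 that were lower and 0 that were higher, where 3.33% of all probe sets were lower and 4.57% higher by that rule. Probe sets of 1 gene read the same RNA and are not independent, and the 9 belong to Reln, Vldlr and Dab1. The members were chosen with earlier results of these data known, so these counts are no test of the set.

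Other genes of the pathway were taken from 5 lists by role, which held 85 measured genes beside the members. Over all genes of the gene table, 1 of these rose and 0 fell, where 0.385% of all genes rose and 0.242% fell, and the median of the 85 was -0.05. The gene that rose was Adamts5, a secreted metalloprotease that can cleave reelin. It read 419, 482 and 389 in cKO and 167, 144 and 185 in WT, a mean ratio of 2.60. The log2 fold change was 1.30 (SE 0.15, adjusted p = 0.0239), and the arrays did not overlap. Of its other probe sets 2 were at 1.32, and the 3 bright ones each passed over all probe sets (adjusted p = 0.0328 to 0.0492). The fourth was at background, with means of 1.82 in cKO and 1.09 in WT. The gene-table call was lost when any 1 of the 6 arrays was left out (adjusted p = 0.0661 to 0.126), with log2 fold changes from 1.21 to 1.38, and without both arrays numbered 3 it was 1.44 (adjusted p = 0.158).

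Of the remaining 11 extracellular components, 0 passed, and at an unadjusted p under 0.05 there were 2 higher and 1 lower, where 5.17% of all genes were higher and 4.39% lower. These 3 genes are named after their values were seen. Timp3, an inhibitor of metalloproteases, read 496, 324 and 493 in cKO and 158, 154 and 190 in WT, at 1.29 (SE 0.20, adjusted p = 0.0639). All 4 of its probe sets were higher in cKO without overlap, by 0.62 to 1.48, where 7.47% of all probe sets were. Adamts3, the protease that inactivates reelin by cleaving it in its N-terminal part in the mouse brain, read 961, 1257 and 893 in cKO and 2710, 2535 and 1907 in WT. Its log2 fold change of -1.19 (SE 0.20, adjusted p = 0.0772) did not pass, its arrays did not overlap, and a dim second probe set was at 0.08. Spon1, which encodes F-spondin, a ligand of ApoER2, read 174, 123 and 254 in cKO and 43.8, 64.1 and 88.9 in WT, at 1.27 (SE 0.31, adjusted p = 0.200). Of these genes, Timp3 passed in 4 of 17 alternatives, Adamts3 in 3 and Spon1 in 0. The list's median was 0.12. Of its 12 genes, 3 were higher and 2 lower without overlap, where 7.90% and 7.64% of all genes were. Meningeal and mesenchymal cells can also make such extracellular proteins. Of 9 of their markers 0 passed and 0 were past an unadjusted p of 0.05, and their summed intensity was 352, 484 and 2243 in cKO and 658, 518 and 724 in WT, so that only cKO 3 was high. Of 10 endothelial and pericyte markers, 0 passed, 9 were lower in cKO, and 3 of these had an unadjusted p under 0.05 (Tie1 at -0.85, Emcn at -0.46 and Rgs5 at -0.60), where 4.39% of all genes were lower by that rule. Their summed intensity was 1846 to 1963 in cKO and 2357 to 2651 in WT, without overlap. Of 9 markers of the ventral telencephalon and its interneurons, 0 passed, and Gad1 at 0.48 and the dim Nkx2-1 at 1.01 were higher at an unadjusted p under 0.05, where 5.17% of all genes were. Their summed intensity, at 4892 to 5655 in cKO and 4075 to 6074 in WT, overlapped. The part of these cells in the values of the pathway genes was not tested.

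**Figure D3:**
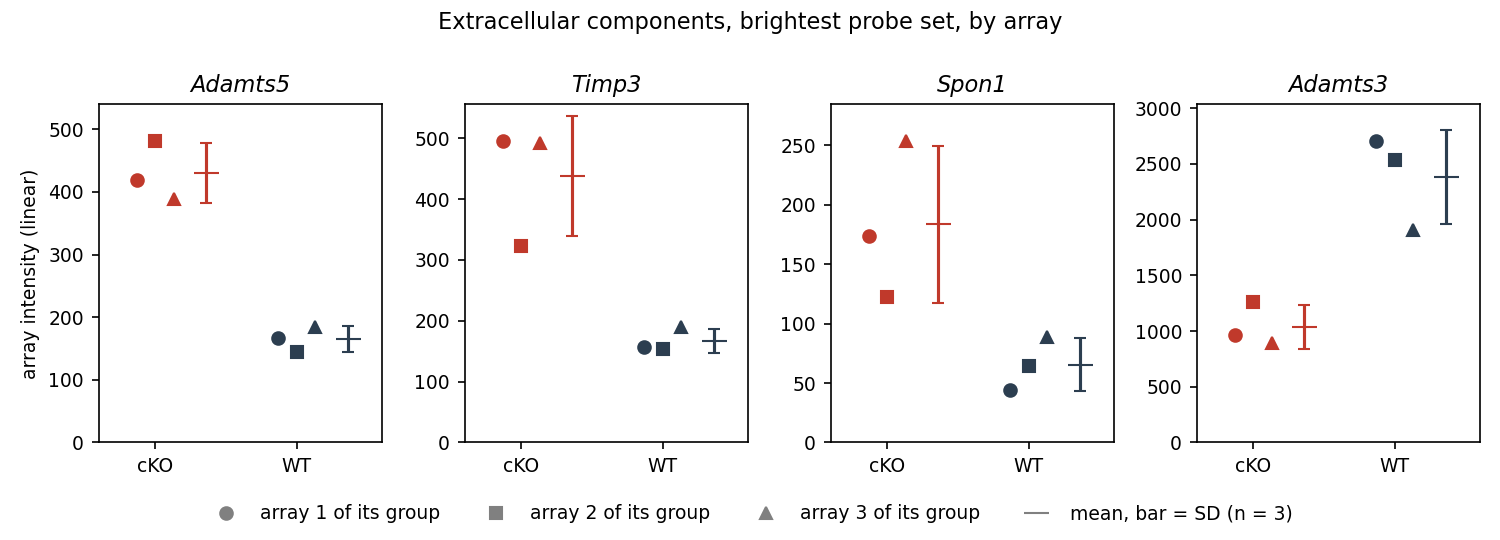
Intensities of the brightest probe sets of Adamts5, Timp3, Spon1 and Adamts3 on a linear axis from 0, cKO arrays left and WT arrays right, with the mean and SD (n = 3). The genotypes do not overlap for any of the 4 genes. They are the 4 of their list with the smallest p, so this lack of overlap is tied to the choice. Of all genes, 7.64% did not overlap downward and 7.90% upward. Adamts5 alone passed the threshold over all genes.

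Among 11 other receptor, coreceptor and receptor turnover genes 0 passed, with a median of -0.004, and at an unadjusted p under 0.05 there were 1 higher and 2 lower, where these shares of all genes were again 5.17% and 4.39%. Ephb1, an Eph receptor, was at -0.61 (SE 0.19) and Efnb2, an ephrin ligand, at -0.37 (SE 0.14). The ephrin gene Efnb1 was at 0.37 (SE 0.13), and Lrpap1, a chaperone of lipoprotein receptors, at 0.37 (SE 0.16) with overlapping arrays.

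Of 29 kinases, adaptors and effectors downstream of Dab1, 0 passed and 0 had an unadjusted p under 0.05 in limma. Their log2 fold changes lay between -0.33 and 0.28, with a median of -0.02. Those with the smallest p were Golga2, a Golgi matrix protein, at -0.25, Socs2 at 0.28, the kinase Stk25 at -0.33 and Src at -0.31. The dimmer Src probe set was at 0.09.

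Cdk5 partners and substrates, 12 genes beside the members, had a median of -0.14, and 0 passed. Mapt, which encodes the microtubule protein tau, a Cdk5 substrate, read 3551, 3427 and 3221 in cKO and 5124, 4901 and 4826 in WT. These values did not overlap, at -0.54 (SE 0.11, adjusted p = 0.146). All 4 Mapt probe sets were lower in cKO without overlap, where 6.07% of all probe sets were. Nes, an intermediate filament gene of progenitors, was at 0.30, Dcx, a microtubule protein of migrating neurons, at -0.16 and Cables2 at 0.19. The probe sets of Nes and Dcx had no common direction. Dimmer ones of Nes were at -0.40 and -0.37, with overlapping arrays, and those of Dcx at 0.11, -0.25 and 0.12.

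Of 21 genes of the Lis1 complex, dynein and dynactin 0 passed in the gene table, and the median was -0.09. A dimmer probe set of Dctn4, a dynactin gene, passed over all probe sets, at 1.81 (SE 0.20, limma adjusted p = 0.0303). It read 296, 370 and 243 in cKO and 82.9, 76.4 and 62.9 in WT. The brightest Dctn4 probe set, which represents the gene, was at -0.21, and the others lay between -0.20 and 0.05. The Dctn4 call was not checked without the arrays numbered 3. Dync1i1, a dynein intermediate chain of neurons, read 772, 973 and 807 in cKO and 1925, 1323 and 1340 in WT. It was lower in each cKO array than in any WT array, at -0.82 (SE 0.19, adjusted p = 0.188). The motor subunit gene Dync1h1 was at -0.27, and Dclk1, a relative of Dcx, at -0.21. Ywhae, whose 14-3-3 protein protects phosphorylated Ndel1, was at -0.32 with overlapping arrays. The other probe sets of these genes had no common direction. A dim Dync1h1 probe set was at 0.36, with each cKO array above each WT array. Further Ywhae probe sets were at -0.04, -0.04 and 0.30, and those of Dclk1 ran from -0.40 to 0.10.

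**Figure D4:**
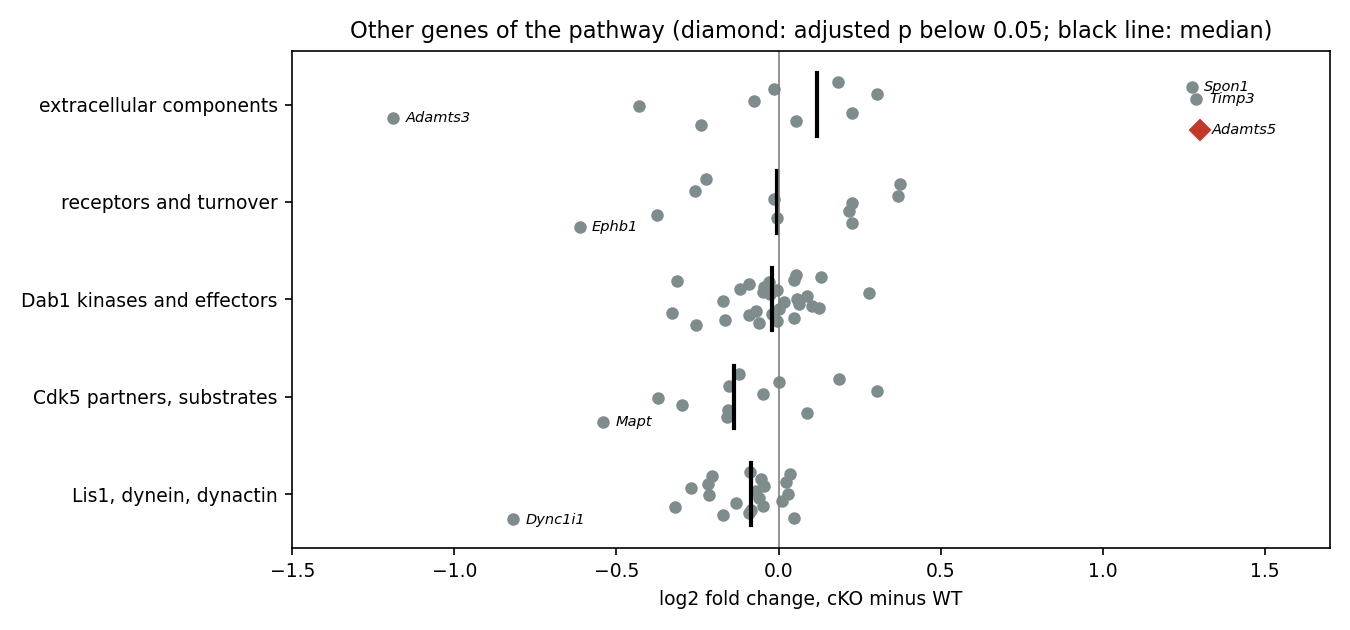
Log2 fold changes, cKO minus WT, of the 85 pathway genes other than the 8 members, 1 point per gene in 5 lists, with the median of each list as a black line. Adamts5 at 1.30 is the gene past the threshold, drawn as a diamond, and medians lie between -0.14 and 0.12.

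The genes whose log2 values followed Reln most closely over the 6 arrays, among 9090 named genes with a mean intensity of at least 200, were Tmem50b, Lhfp, Kcnk2, Cenpv and Rragd, with Pearson r between 0.994 and 0.998. All 5 were lower in cKO without overlap, which any such likeness to Reln entails, since the arrays fall into the 2 genotypes. Tmem50b, with the highest r of 0.998, was at -0.63 (SE 0.12). Lhfp, at -1.34 (SE 0.15), was past the threshold (limma adjusted p = 0.0239). It came to -1.39 without both arrays numbered 3 (adjusted p = 0.158). When 1 array was left out it ran from -1.45 to -1.26 and kept its call without cKO 3 (adjusted p = 0.0479), but lost it without cKO 1, cKO 2, WT 1, WT 2 or WT 3 (adjusted p up to 0.136). Kcnk2, a potassium channel gene, was at -0.80 (SE 0.11, adjusted p = 0.0504). As 100 of the 9090 genes had an r of 0.95 or more, the order among the first 5 rests on small differences.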

How the data were processed

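The authors deposited 1 array intensity per probe set and sample, linear and not log-transformed, made with the Affymetrix Expression Console, per the submitters' processing notes. The version used and the way probes were summarised were not given in the sources used here. Trimmed means of 497.2 to 497.7 on all 6 arrays show a common scaling. All 45037 probe sets were used, without detection calls.

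Intensities were taken to log2(intensity + 16), which makes fold changes of dim probe sets smaller. limma 3.58.1 in R 4.3.3 (lmFit, eBayes) was fitted with genotype as its only term, and p-values were adjusted by Benjamini-Hochberg with a threshold of 0.05. The fit was run over all probe sets, and again over a gene table of the brightest probe set of each of 18193 genes. Fold changes are cKO minus WT, and SE and 95% intervals are the moderated ones of limma. Values of genes come from the gene table, and values of single probe sets from the fit over all probe sets. The 3 arrays per group limit the precision. The platform annotation gave 1 gene to 34945 probe sets, several to 932 and none to 9160, and comparison with RefSeq changed 0 symbols. Promoter sequences were matched for 6 of the 8 members (Cdk5 and Cdk5r1 were not matched).

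The members and lists were chosen with earlier results of these data known, so no test over a list was made. All probe sets of the members are described. Of each pathway list, the text names genes past the threshold or else the 4 with the smallest p. Timp3, Adamts3, Spon1 and Dctn4 were named outside this rule, after their values were seen. The fit was tested on simulated data. Alternatives were quantile normalization, median centring, pseudocounts of 1 and 64, leaving out dim or ambiguous probe sets, other variance moderation, array weights, 2 kinds of block and leaving out arrays.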

Additional observations from a re-analysis of the deposited data

How the results depend on the processing

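The fold change of Reln kept its direction in 17 alternatives and its call in 8. The call was lost with a pseudocount of 1 (-1.16, adjusted p = 0.0567), the replicate block (-1.15, adjusted p = 0.113), without both arrays numbered 3 (-1.22, adjusted p = 0.164) and in each fit that left out 1 array (-1.24 to -1.06). The count of called members was 0 in these fits, between 0 and 0 over those that left out 1 array. Fits on fewer arrays have less power. Among all probe sets, 1 member probe set was called, that of Reln, with median centring, a pseudocount of 64, without dim probe sets, with trended and robust moderation and with array weights, against 0 in the others, including 0 in the fits that left out 1 array. The count of called pathway genes, 1 in the report, was 2 with median centring, 3 with a pseudocount of 64, 4 without dim probe sets and 5 with trended and robust moderation, and it was 0 with a pseudocount of 1, the replicate block, without both arrays numbered 3 and in the fits that left out 1 array. Over the fits that left out 1 array, Lrp8 ran from -0.15 without cKO 1 to 0.36 without cKO 3, and Pafah1b1 from -0.25 without WT 3 to 0.011 without cKO 3, neither called in any setting. Cdk5 ran from -0.26 to -0.03, Vldlr from -0.27 to -0.05 and Ndel1 from -0.18 to -0.07 over the same fits, also without a call. Vldlr came to -0.51 without _x_at and _s_at probe sets. The alternatives for Lhfp were added after seeing the data. The cause of these changes was not tested. Deviations of same-numbered arrays from their group means correlated at 0.07, 0.17 and 0.37 across genes, highest for the arrays numbered 3. Those of differently numbered arrays ran from -0.27, for cKO 3 with WT 2, to 0.15, for cKO 1 with WT 2. As cKO 1 was closer to WT 2 than to WT 1, the numbers were not taken to pair the samples. The replicate block lowered the calls over all genes to 17, from 114. With 3 arrays per genotype, the 95% intervals of Vldlr, Cdk5, Lrp8, Pafah1b1 and Ndel1 include 0.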
